A study of Homo sapiens with 12 samples.

Results

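The guanylate-binding proteins GBP1, GBP2, GBP3, GBP4 and GBP5 were followed in classical Hodgkin lymphoma cell lines exposed to the DNA demethylating drug 5-aza-2'-deoxycytidine (5-Aza-dC). Members were taken as every probe set (a group of short array probes read as 1 value) that the array annotation assigns to 1 of these gene symbols and to no other. This gave 5 genes of 19775 with a probe set and 11 probe sets of 54613 tested: 4 for GBP1, 2 for GBP2, 1 for GBP3, 2 for GBP4 and 2 for GBP5. The series holds 12 arrays in 4 groups of 3: L1236 cells treated with 5-aza-2'-deoxycytidine, untreated L1236 cells, L428 cells treated with the drug, and untreated L428 cells. Treated cells received 1 µM of drug for 24 h and were then kept in drug-free medium for 72 h. L1236 and L428 are established lines, each grown from the malignant cells of a single patient, so each line is 1 genetic background. The label of each array gives a replicate number, and no label says whether the 3 arrays of a group came from separate cultures, so the p-values describe the spread between these arrays.

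Guanylate-binding proteins are large GTPases of the dynamin superfamily that cells make in quantity after interferon gamma and, less strongly, after type I interferons. They bind and coat intracellular bacteria and pathogen-containing vacuoles, and they help to pass bacterial lipopolysaccharide and DNA to inflammasome sensors. Their genes are read by transcription factors downstream of the interferon receptors, among them the interferon regulatory factors, which bind the interferon-stimulated response element (ISRE). 5-aza-2'-deoxycytidine traps DNA methyltransferases during replication and lowers DNA methylation in dividing cells. The comparison asked how the expression of the family stood after treatment in each line, whether the lines answered alike, and which interferon pathway genes moved beside it.

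The 5 genes lie in a cluster on chromosome 1 (GRCh38.p14, RefSeq), with another annotated gene between GBP2 and GBP4, within chr1:89006680-89272860. Their positions are chr1:89006680-89022866 for GBP3, chr1:89052319-89065208 for GBP1, chr1:89106132-89126114 for GBP2, chr1:89181144-89198942 for GBP4 and chr1:89256189-89272860 for GBP5. Promoter sequences, from 250 bases before to 50 bases after the annotated start of the gene, were taken from RefSeq (GRCh38.p14) for GBP3 (chr1:89022817-89023116), GBP1 (chr1:89065159-89065458) and GBP4 (chr1:89198893-89199192). They are shown because members with and without a called change in L1236 can be read side by side, and because the drug acts on CpG methylation. Each is written 5′ to 3′ on the minus strand of the chromosome, with motif matches in capitals.
GBP3: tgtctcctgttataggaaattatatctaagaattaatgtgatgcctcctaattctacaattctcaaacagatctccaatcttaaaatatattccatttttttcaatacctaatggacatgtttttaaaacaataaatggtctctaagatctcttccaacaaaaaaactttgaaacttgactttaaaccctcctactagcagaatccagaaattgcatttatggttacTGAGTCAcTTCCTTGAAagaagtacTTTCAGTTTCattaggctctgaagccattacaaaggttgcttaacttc
GBP1: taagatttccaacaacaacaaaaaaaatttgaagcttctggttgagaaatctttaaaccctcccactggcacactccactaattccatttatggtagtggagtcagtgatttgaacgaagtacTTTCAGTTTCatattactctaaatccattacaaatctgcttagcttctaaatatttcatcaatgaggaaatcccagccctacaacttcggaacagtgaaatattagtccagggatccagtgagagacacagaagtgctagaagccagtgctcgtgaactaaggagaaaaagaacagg
GBP4: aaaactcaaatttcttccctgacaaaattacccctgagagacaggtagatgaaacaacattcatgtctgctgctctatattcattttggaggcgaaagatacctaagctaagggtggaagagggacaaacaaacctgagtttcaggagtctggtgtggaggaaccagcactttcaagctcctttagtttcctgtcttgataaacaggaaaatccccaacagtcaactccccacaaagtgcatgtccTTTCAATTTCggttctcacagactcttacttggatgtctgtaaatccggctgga
These motifs were searched on both strands: the ISRE core, which is GAAA, any 2 bases and GAAA (on the other strand TTTC, any 2 bases and TTTC),, the gamma-activated site core TTCNNNGAA and the AP-1 site TGANTCA. GBP1 has an ISRE match at bases -127 to -118 from the start and GBP4 has an ISRE match at bases -4 to 6. GBP3 has an ISRE match at bases 3 to 12, a gamma-activated site match at bases -15 to -7 and an AP-1 match at bases -23 to -17. No match overlaps another. Of 35116 promoters of the same length, 3.57% hold an ISRE match, 7.66% a gamma-activated site match and 7.71% an AP-1 match. All 3 windows are poor in CpG: GBP3 has 0 CpG dinucleotides, GBP1 has 3 and GBP4 has 3, against a median of 14 over all promoters. A CpG count of 0 is found in 3.96% of promoters, and a count of at most 3 in 24.5%. A match describes the letters only, and methylation of these windows was not measured.

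All values are log2 signals of the deposited array table, and no probe set's level can be set against another's. Array medians lay between 3.01 and 3.08, and signals near 2 to 3 were treated as the floor of the array. Arrays within a group had correlations of 0.982 to 0.997 with each other, while L1236 with L428 arrays gave 0.911 to 0.937. The 2 treated arrays numbered 1 stood apart from their groups: the SD of their deviations over all probe sets was 0.350 in L1236 and 0.385 in L428, against 0.161 to 0.313 in the other 10 arrays. The treated L428 array numbered 1 correlated best with an untreated L428 array. For untreated L1236 replicate 1 the source name describes treated L428 cells, while its description says untreated L1236, which set its group, and its values correlated best with another untreated L1236 array. Results are therefore also given without the arrays numbered 1, which leaves 2 arrays a group. Of 8 markers of the malignant cells of Hodgkin lymphoma, the summed level over the list was 81.9 to 88.8 in treated L1236, 74.6 to 75.5 in untreated L1236, 93.3 to 93.8 in treated L428 and 88.9 to 94.7 in untreated L428, with TRAF1 below 3 in both L1236 groups.

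The family was higher after treatment in both lines. In L1236 cells, 4 of the 5 genes had a called increase (GBP1, GBP2, GBP4 and GBP5), and in L428 cells 4 of the 5 did (GBP1, GBP3, GBP4 and GBP5). By probe set, 5 of 11 were called higher in treated L1236 cells, where 4.58% of all probe sets were, and 7 of 11 in treated L428 cells, where 1.82% were. No member was called lower. With the replicate numbers as a block, 5 of 11 were called higher in each line, where 2724 of 54613 probe sets were in L1236 and 1019 in L428. In that fit GBP1, GBP2 and GBP4 kept a call in L1236, and GBP1 and GBP4 in L428. GBP5 in both lines and GBP3 in L428 then had none. Calls are at an adjusted p under 0.05 in limma, fitted on all 12 arrays with Benjamini-Hochberg adjustment over all probe sets. The median log2 difference over the 11 probe sets was 2.43 in L1236 and 3.06 in L428, against -0.03 and -0.02 over all probe sets. Every treated array lay above every untreated array for 9 of 11 probe sets in L1236 (10.3% of all probe sets) and for 10 of 11 in L428 (6.41%). In bulk RNA of a cell line, more cells expressing a gene and more RNA per cell cannot be told apart.

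The number of calls hung on single arrays. The calls over all 54613 probe sets moved in the same fits. In L1236, 0 of 11 were called without treated replicate 2 or 3 or without untreated L1236 replicate 2 or 3. Over all probe sets, 1367 to 1535 were higher in those fits, against 2504 in the main fit. The count of members was 2 without untreated L1236 replicate 1 (2082 of all probe sets higher) and 8 without treated L1236 replicate 1 (4115 higher). In L428, 0 of 11 were called without treated replicate 2 or 3 or without untreated L428 replicate 2 or 3, and 10 without treated replicate 1. Over all probe sets, 510 to 592 were higher in the former fits and 3107 in the latter, against 992 in the main fit. Because the 12 arrays share 1 estimate of spread, arrays of the other line also moved the counts. In L1236, 2 to 8 members were called without an L428 array, where 2080 to 3087 of all probe sets were higher. In L428, 4 to 7 were called without an L1236 array, where 708 to 1057 were higher. Without the arrays numbered 1, 9 of 11 were called higher in L1236, where 10.7% of all probe sets were in that fit, and 10 of 11 in L428, where 8.46% were.

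**Figure D1:**
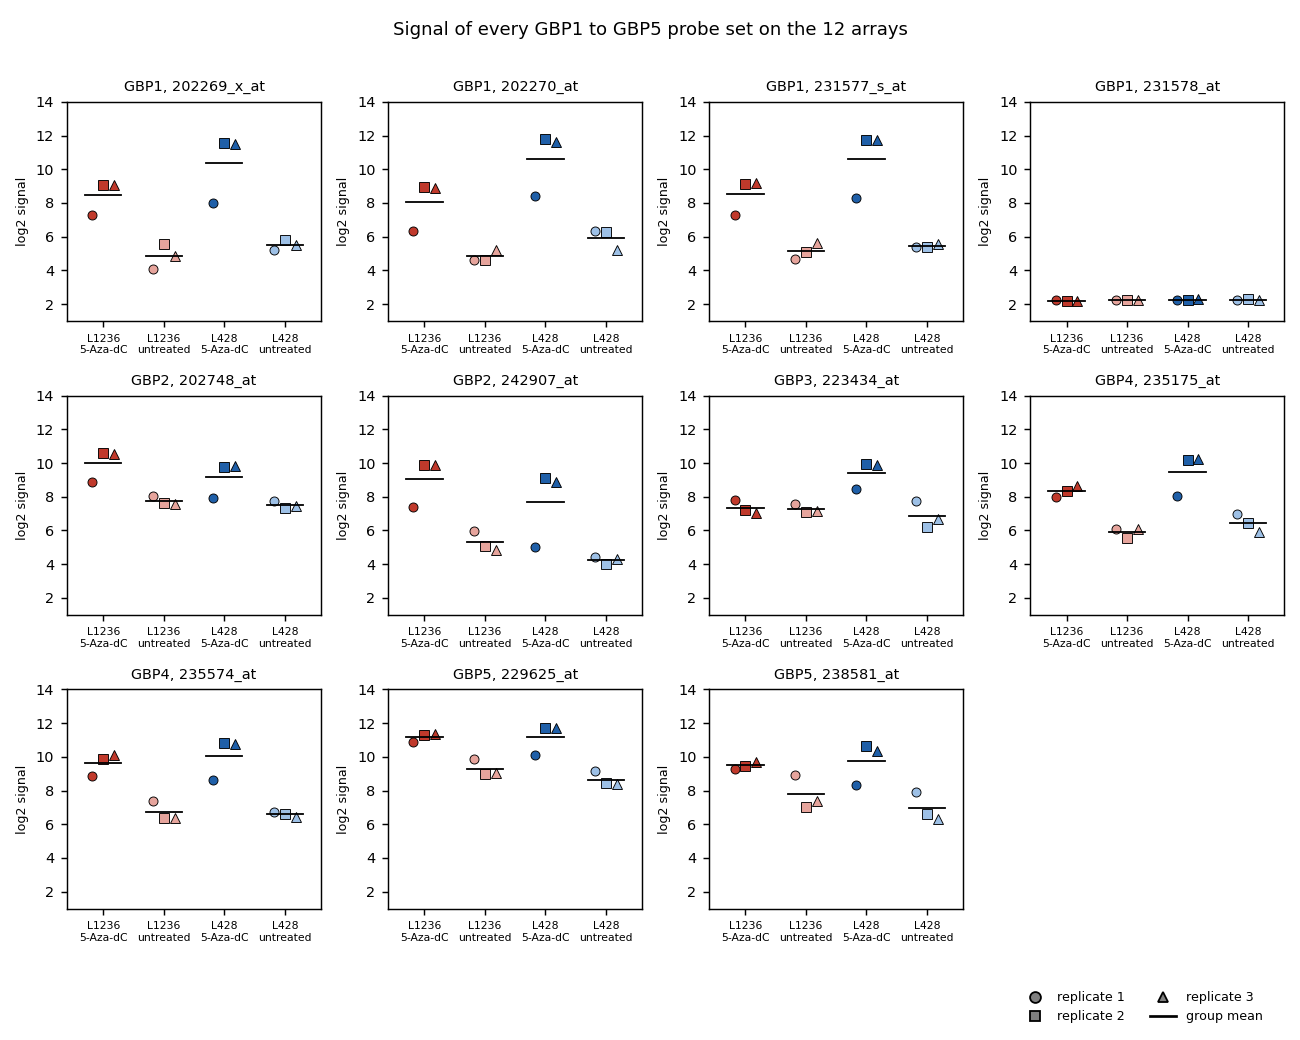
Log2 signal (vertical axis) of the GBP probe sets in each of the 12 arrays, 1 panel per probe set, with treated groups left of untreated groups in each line; points are arrays, with a shape for each replicate number, and bars are group means. Treated arrays numbered 1 lie below the other treated arrays of GBP1 and GBP2, and the GBP1 probe set 231578_at stays near 2.2 in every array.

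GBP1, the founding member of the family, coats cytosolic Gram-negative bacteria and is the first to land on them. Its probe set 231577_s_at read 7.28, 9.10 and 9.17 in treated L1236 cells, against 4.69, 5.09 and 5.61 in untreated L1236 cells. In L428 it read 8.28, 11.75 and 11.73 in treated cells, against 5.39, 5.39 and 5.57 in untreated cells. In both lines the treated arrays lay wholly above the untreated ones, and the treated array numbered 1 was the lowest of its group. The log2 difference in L1236 was 3.39 ± 0.90 (SE), a 10.5-fold higher signal that missed the threshold at a limma adjusted p of 0.0509. In L428 it was 5.14 ± 0.90 (SE, 95% interval 3.09 to 7.18), a 35.2-fold higher signal and the largest member difference in either line, with a limma adjusted p of 0.0199. Probe set 202269_x_at read 7.30, 9.06 and 9.04 in treated L1236 cells and 4.10, 5.54 and 4.84 in untreated ones, and it was called in that line (12.5-fold, limma adjusted p = 0.0435). In L428 the same probe set read 8.01, 11.53 and 11.48 in treated cells and 5.21, 5.79 and 5.50 in untreated cells (28.7-fold, limma adjusted p = 0.0294). Probe set 202270_at gave 9.41-fold in L1236, short of the threshold (limma adjusted p = 0.0813), and was called at 25.3-fold in L428 (0.0427). The remaining probe set, 231578_at, lay between 2.18 and 2.31 in all 12 arrays, near the floor, and differed in neither line (limma adjusted p = 0.44 in L1236 and 0.967 in L428).

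GBP2 ends in a lipid-attachment (CaaX) motif, as GBP1 and GBP5 do, and with GBP5 it lowers the activity of the protease furin. Its probe set 202748_at read 8.86, 10.62 and 10.52 in treated L1236 cells, against 8.07, 7.66 and 7.58 in untreated L1236 cells. L428 cells gave 7.95, 9.75 and 9.80 when treated, against 7.72, 7.31 and 7.45 when untreated. The groups did not overlap in either line, but the treated L428 array numbered 1 lay only 0.22 above the untreated array of the same number, while the arrays numbered 2 and 3 lay 2.44 and 2.35 above theirs. The increase was called in L1236, at 2.23 ± 0.58 on the log2 scale (SE, 95% interval 0.92 to 3.54), 4.69-fold, with a limma adjusted p of 0.0464. That call was kept in 9 of 21 alternatives, with a limma adjusted p of 2.67e-05 to 0.171 over them. In L428 the difference of 1.67 ± 0.58 (SE, 95% interval 0.36 to 2.98), 3.18-fold, was not called (limma adjusted p = 0.188). Without the arrays numbered 1 it was 2.39 ± 0.07 in L428 and passed the threshold (limma adjusted p = 7.50e-05, with 7.50e-05 to 0.524 over the alternatives). The second probe set, 242907_at, read 7.40, 9.90 and 9.90 in treated L1236 cells and 5.96, 5.08 and 4.86 in untreated ones. The L428 arrays read 5.04, 9.14 and 8.90 in treated cells and 4.42, 3.99 and 4.29 in untreated cells. Its differences, 13.6-fold in L1236 and 11-fold in L428, were larger than those of 202748_at but did not pass (limma adjusted p = 0.0676 and 0.149), with the treated arrays numbered 1 again the lowest of their groups.

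GBP3, which joins the coat that GBP1 starts on bacteria, was the member whose readings parted between the lines. Its single probe set, 223434_at, read 7.80, 7.22 and 7.02 in treated L1236 cells, against 7.59, 7.07 and 7.14 in untreated L1236 cells, and these groups overlapped. In L428 it read 8.48, 9.93 and 9.88 in treated cells, against 7.73, 6.22 and 6.69 in untreated cells, with every treated array above every untreated array. The log2 difference was 0.08 ± 0.48 in L1236 (SE, 95% interval -1.01 to 1.17, limma adjusted p = 0.923) and 2.54 ± 0.48 in L428 (SE, 95% interval 1.46 to 3.63), 5.84-fold, with a limma adjusted p of 0.0274. With the replicate numbers as a block the L428 value missed the threshold (limma adjusted p = 0.0542, with 3.98e-04 to 0.219 over the alternatives). The L1236 response was below the L428 response by a log2 difference of -2.47 ± 0.68 (SE, 95% interval -4.00 to -0.93), with an unadjusted p of 0.00558 in limma and an adjusted p of 0.117, so the difference between the lines was not called. It was called without the arrays numbered 1, at -3.43 ± 0.23 (SE, limma adjusted p = 0.00159, with 0.00159 to 0.255 over the alternatives), where the L1236 difference was 0.02 and the L428 difference 3.44.

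GBP4 has no CaaX motif and has been placed with GBP1 in the recruitment of CASP4 to bacteria. Probe set 235574_at read 8.84, 9.86 and 10.14 in treated L1236 cells, against 7.39, 6.37 and 6.35 in untreated L1236 cells. In L428 it read 8.64, 10.80 and 10.75 in treated cells, against 6.72, 6.58 and 6.45 in untreated cells. Treated and untreated arrays did not overlap in either line, and the 2 untreated groups lay close together. The log2 difference was 2.91 ± 0.60 (SE) in L1236, 7.53-fold (limma adjusted p = 0.0188), and 3.48 ± 0.60 (SE) in L428, 11.1-fold (limma adjusted p = 0.0185). Probe set 235175_at was called as well, with 8.0, 8.35 and 8.62 in treated L1236 cells and 6.09, 5.53 and 6.06 in untreated ones (5.38-fold, limma adjusted p = 0.0285). Its L428 readings were 8.06, 10.18 and 10.22 in treated cells and 6.96, 6.43 and 5.89 in untreated cells (8.36-fold, limma adjusted p = 0.0227). GBP4 was thus called by each of its probe sets in each line.

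GBP5 promotes assembly of the NLRP3 inflammasome and is held at the Golgi by its lipid anchor. Probe set 229625_at read 10.88, 11.31 and 11.34 in treated L1236 cells, against 9.89, 8.98 and 9.02 in untreated L1236 cells. In L428 it read 10.10, 11.70 and 11.72 in treated cells, against 9.14, 8.45 and 8.38 in untreated cells. The signal was well above the floor in untreated cells of both lines, and the treated arrays lay above all untreated ones in each. The log2 difference was 1.88 ± 0.46 (SE) in L1236, 3.68-fold (limma adjusted p = 0.0361), and 2.51 ± 0.46 (SE) in L428, 5.71-fold (limma adjusted p = 0.0233). With the replicate block the L428 value missed the threshold (limma adjusted p = 0.0526, with 3.81e-06 to 0.194 over the alternatives). The L1236 call was lost with that block as well. Probe set 238581_at moved in the same direction without a call: it read 9.28, 9.47 and 9.72 in treated L1236 cells and 8.93, 7.05 and 7.35 in untreated ones (limma adjusted p = 0.189). Its L428 readings were 8.31, 10.63 and 10.38 in treated cells and 7.92, 6.63 and 6.29 in untreated cells (7.09-fold, limma adjusted p = 0.0816). The untreated array numbered 1 was the highest of its group for both GBP5 probe sets in each line.

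**Figure D2:**
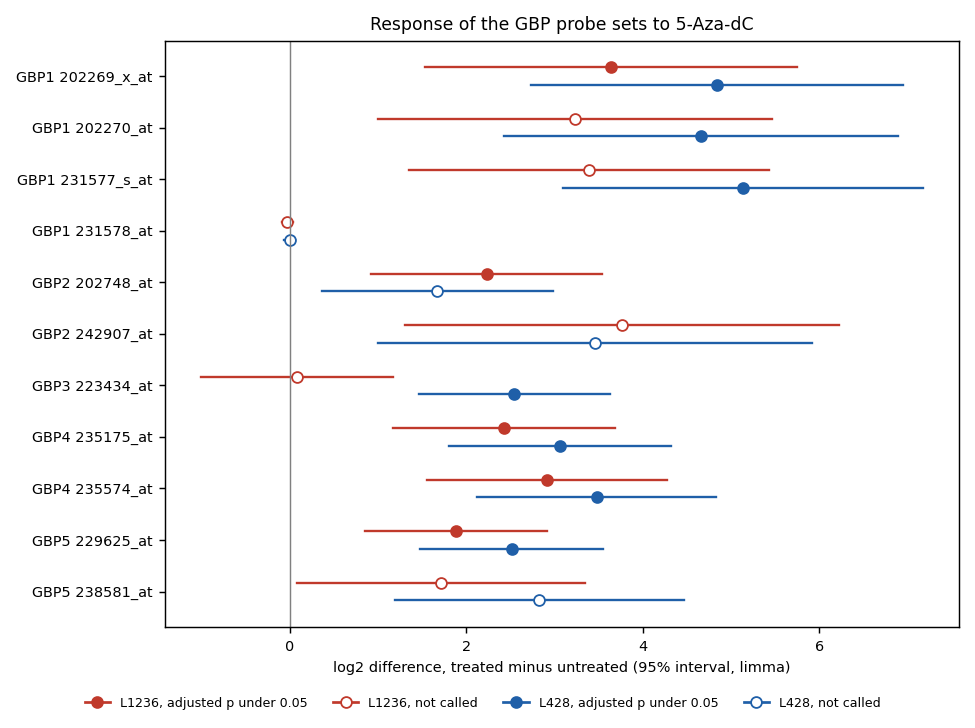
Log2 difference of treated minus untreated cells for each GBP probe set in L1236 and in L428; points are limma estimates, filled where called, and bars their 95% intervals. GBP3 lies at 0.08 in L1236 and 2.54 in L428, and the intervals of the 2 lines overlap for the GBP1, GBP2, GBP4 and GBP5 probe sets.

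By gene, the order of the 4 groups was as follows, with overlap of arrays taken as not differing beyond the spread. For GBP1 (231577_s_at) the group means were 8.52 ± 1.07 in treated L1236, 10.59 ± 2.0 in treated L428, 5.13 ± 0.46 in untreated L1236 and 5.45 ± 0.11 in untreated L428 (SD, n = 3 each), and the 2 treated groups overlapped, as did the 2 untreated groups. GBP4 (235574_at) averaged 9.61 ± 0.68 in treated L1236 and 10.06 ± 1.23 in treated L428, against 6.70 ± 0.59 in untreated L1236 and 6.59 ± 0.14 in untreated L428, with the same overlaps. GBP5 (229625_at) averaged 11.18 ± 0.26 in treated L1236 and 11.17 ± 0.93 in treated L428, against 9.30 ± 0.51 in untreated L1236 and 8.66 ± 0.42 in untreated L428. For GBP2 (202748_at) the means were 10.00 ± 0.99 in treated L1236 and 9.16 ± 1.05 in treated L428, against 7.77 ± 0.26 in untreated L1236 and 7.49 ± 0.21 in untreated L428. GBP3 stood apart in this order: treated L428 averaged 9.43 ± 0.82, above all other arrays, while treated L1236 (7.34 ± 0.40), untreated L1236 (7.26 ± 0.28) and untreated L428 (6.88 ± 0.77) overlapped.

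The difference between the lines in their response was called for no member. In the comparison of the L1236 response with the L428 response, limma called 0 of 11 probe sets, where 2.57% of all probe sets were called, and 1 of 11, GBP3, had an unadjusted p under 0.05. The intervals were wide: for GBP1 (231577_s_at) the difference of responses was -1.75 with a 95% interval of -4.64 to 1.14, and for GBP5 (229625_at) it was -0.63 with an interval of -2.10 to 0.83. Without the arrays numbered 1, limma called 7 of 11, with 6 lower in L1236 (2 of GBP1, GBP3, 1 of GBP4 and 2 of GBP5) and 1 higher (GBP2, 202748_at), where 14.3% of all probe sets were called in that fit. Between untreated L1236 and untreated L428 cells, limma called 0 of 11 members, and 0 of 11 had an unadjusted p under 0.05, where 21.1% of all probe sets were called. These differences ran from -1.11 for GBP1 (202270_at) to 1.07 for GBP2 (242907_at) on the log2 scale. Without the arrays numbered 1, 4 of 11 were called higher in untreated L1236: 242907_at of GBP2, GBP3 and both probe sets of GBP5, where 13.9% of all probe sets were called higher in that fit.

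The members moved together across the 12 arrays, which share the treatment and the line. Leaving out 231578_at, probe sets of the same gene correlated at 0.957 to 0.991 over 6 pairs. Probe sets of different genes other than GBP3 correlated at 0.750 to 0.972 over 30 pairs, with a median of 0.883. GBP3 correlated with the others at 0.417 to 0.796 over 9 pairs, with a median of 0.732. Among 3177 genes whose group means spanned at least 2 log2 units, those most like GBP1 over the 12 arrays were LY6K (Pearson r = 0.989), FMR1NB (0.986) and CCDC85A (0.985). Those most like GBP2 were ADCY7 (0.990), PTGS2 (0.985) and ARMCX1 (0.985). The genes most like GBP4 were FMR1NB (0.986), EZHIP (0.984) and UPP1 (0.983). For GBP5 they were the histone genes H4C8 (0.979), H2BC6 (0.972) and H2BC12L (0.966). Those most like GBP3 were IFI6 (0.958), SAMD9 (0.954) and RTP4 (0.946), which are known as interferon-stimulated genes.

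**Figure D3:**
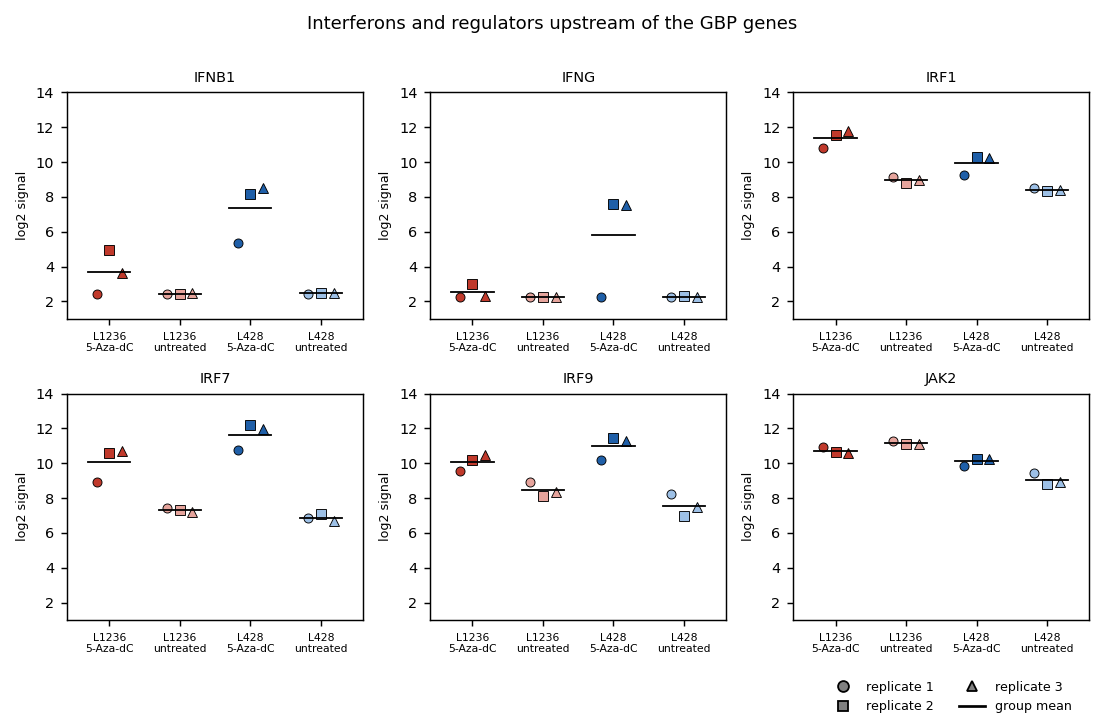
Log2 signal (vertical axis) of interferon pathway genes in each array, with treated groups left of untreated groups in each line; points are arrays, with a shape for each replicate number, and bars are group means. IFNG lies at 2.26 in the treated L428 array numbered 1 and at 7.60 and 7.56 in the arrays numbered 2 and 3.

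Genes that act above the family were read from the same fit, 1 probe set per gene. Of 18 interferon, receptor, JAK and IRF genes measured, 6 rose and 0 fell in L1236, where 7.41% of genes were called higher and 4.99% lower, and 6 rose and 0 fell in L428, where 2.84% were called higher and 1.02% lower. Their median log2 difference was 0.65 in L1236 and 0.77 in L428, against -0.03 and -0.02 over all genes. IRF1, a transcription factor that drives GBP genes, read 10.79, 11.54 and 11.78 in treated L1236 cells, against 9.17, 8.82 and 8.97 in untreated L1236 cells. In L428, IRF1 read 9.25, 10.29 and 10.25 in treated cells, against 8.51, 8.33 and 8.42 in untreated cells. It rose in both lines, by 2.38 ± 0.31 in L1236 (SE, limma adjusted p = 0.00236) and by 1.51 ± 0.31 in L428 (0.0401). The L428 call of IRF1 was kept in 10 of 21 alternatives. IRF7, the regulator of type I interferon genes, also rose in both, by 2.75 ± 0.49 in L1236 (limma adjusted p = 0.0106) and 4.76 ± 0.49 in L428 (0.00164). IRF9, the DNA-binding part of the type I interferon complex, missed the threshold in L1236 (1.61 ± 0.43, limma adjusted p = 0.0536) and rose in L428 (3.41 ± 0.43, 0.00437). USP18, a brake on type I interferon signalling, differed by 0.76 in L1236 (limma adjusted p = 0.168) and rose by 3.61 ± 0.30 in L428 (5.23e-04). In L1236, IRF8 (1.64), the feedback inhibitor SOCS3 (1.65), IFNGR2 (0.81) and IRF2 (0.55) completed the 6, the last of them named here because it completes the count. JAK2, a kinase of the interferon gamma receptor, differed by -0.45 in L1236 (limma adjusted p = 0.185) and rose in L428 (1.05 ± 0.18, 0.0202). JAK1 and IFNGR1 were called in neither line. IRF8 in L428 differed by 1.3 (limma adjusted p = 0.0827) and was called with the replicate block (0.0144, with 0.00136 to 0.295 over the alternatives).

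The interferon genes themselves were near the floor in untreated cells of both lines. IFNB1, a type I interferon, read 2.44, 4.94 and 3.62 in treated L1236 cells, against 2.45, 2.44 and 2.46 in untreated L1236 cells (1.21 ± 0.83, limma adjusted p = 0.348). In L428, IFNB1 read 5.38, 8.17 and 8.51 in treated cells, against 2.44, 2.49 and 2.46 in untreated cells. It rose there by 4.89 ± 0.83 (SE, limma adjusted p = 0.0174), with every treated array above the floor. IFNG, which encodes interferon gamma, read 2.25, 3.01 and 2.30 in treated L1236 cells, against 2.26, 2.26 and 2.27 in untreated L1236 cells (0.26 ± 1.21, limma adjusted p = 0.899). In L428, IFNG read 2.26, 7.60 and 7.56 in treated cells, against 2.26, 2.29 and 2.27 in untreated cells. Both high readings came from the treated L428 arrays numbered 2 and 3, in which GBP1, GBP2, GBP3, GBP4 and GBP5 were also higher than in the array numbered 1, apart from the GBP1 probe set at the floor, and the L428 difference of 3.53 ± 1.21 was not called (limma adjusted p = 0.184). The part of any of these genes in the GBP levels was not tested.

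Of 24 measured genes known to answer interferon gamma, 6 rose and 0 fell in L1236, where 7.41% of genes were called higher, and 10 rose and 0 fell in L428, where 2.84% were. The rest were not called, among them CIITA and HLA-DRA of antigen presentation in both lines. NLRC5, a further antigen presentation gene of the list, was among the rises in L428 (1.46 ± 0.31, SE, limma adjusted p = 0.0412). The median log2 difference of the 24 was 0.59 in L1236 and 1.47 in L428. CXCL11, a chemokine that draws T cells, rose by 4.34 ± 1.12 in L1236 (SE, limma adjusted p = 0.0461) and by 6.10 ± 1.12 in L428 (0.0248). CXCL10, its relative, differed by 1.29 in L1236 without a call (limma adjusted p = 0.104) and rose by 4.68 in L428 (8.02e-04). IDO1, which breaks down tryptophan, differed by 0.17 in L1236 (limma adjusted p = 0.881) and rose in L428 (3.42 ± 0.68, 0.0346). The L428 call of IDO1 was kept in 10 of 21 alternatives. ETV7, an ETS-family repressor, rose in both lines, by 2.12 in L1236 (limma adjusted p = 0.0066) and 2.77 in L428 (0.00393). WARS1, the tryptophanyl-tRNA synthetase, rose by 2.06 in L1236 (limma adjusted p = 0.0459), and so did the adhesion molecule ICAM1 (1.69, 0.041). These calls were kept in 9 and 12 of 21 alternatives. In L428 neither was called: WARS1 differed by 1.59 (limma adjusted p = 0.175) and ICAM1 by 0.83 (0.399).

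Related GTPases moved less uniformly. Of 9 measured, 2 rose and 1 fell in L1236, where 7.41% of genes were called higher and 4.99% lower. In L428, 2 rose and 1 fell, where 2.84% were called higher and 1.02% lower. MX1, an antiviral GTPase of the dynamin superfamily, rose by 2.92 ± 0.53 in L1236 (SE, limma adjusted p = 0.0112) and by 4.79 ± 0.53 in L428 (0.00226). MX2 differed by 0.47 in L1236 (limma adjusted p = 0.391) and rose by 2.10 in L428 (0.018), and IRGQ rose in L1236 (1.12, 0.023). ATL3, an atlastin that joins endoplasmic reticulum membranes, fell by 0.51 in L1236 (limma adjusted p = 0.0193) and by 0.49 in L428 (0.0452), the last lost with the replicate block (0.0617, with 0.00728 to 0.18 over the alternatives). The L428 call of ATL3 was kept in 5 of 21 alternatives. GBP6, a further family member in the same cluster, differed by 0.05 in L1236 and 0.15 in L428, at signals near the floor, and was not called.

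Of 16 inflammasome genes, 3 rose and 0 fell in L1236 and 2 rose and 0 fell in L428, with medians of -0.05 and -0.01. Over all genes, 7.41% were called higher in L1236 and 2.84% in L428. IFI16, a DNA sensor, rose by 0.93 in L1236 (limma adjusted p = 0.0369) and 1.97 in L428 (0.00262). NLRC4, the platform of the flagellin-sensing inflammasome, rose in L1236 (2.96 ± 0.32, limma adjusted p = 7.99e-04) and differed by -0.02 in L428. NLRP1, another sensor, rose in L1236 (1.77, limma adjusted p = 0.0341). PYCARD, the adaptor ASC, differed by -1.23 in L1236 (limma adjusted p = 0.182) and rose by 2.61 in L428 (0.0307). With the replicate block the L428 value missed the threshold (limma adjusted p = 0.0621, with 6.02e-04 to 0.128 over the alternatives). CASP4, the lipopolysaccharide receptor that GBP coats recruit, differed by -0.12 in L1236 (limma adjusted p = 0.883) and 1.93 in L428 (0.078). CASP1, which cleaves IL1B and IL18, differed by -0.06 in L1236 (limma adjusted p = 0.925) and 1.06 in L428 (0.228). Of 6 genes for the enzymes that attach and process CaaX lipids, limma called 0 in L1236, with 3 at an unadjusted p under 0.05, and 0 in L428, with 2.

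The genes on either side of the cluster were compared with the family. Over all genes, 7.41% were called higher and 4.99% lower in L1236, and 2.84% higher and 1.02% lower in L428. Of 10 measured neighbours, limma called 0 in L1236, with 3 at an unadjusted p under 0.05, and 1 in L428, with 6 at that level. The call was GTF2B, a general transcription factor, which differed by 0.94 in L1236 (limma adjusted p = 0.101) and rose by 1.39 ± 0.31 in L428 (SE, 0.0489). With the replicate block the L428 value missed the threshold (limma adjusted p = 0.0521, with 1.23e-05 to 0.299 over the alternatives). The neighbours' medians were -0.07 in L1236 and 0.03 in L428. Without the arrays numbered 1, 2 neighbours rose and 4 fell in L1236, and 3 rose and 4 fell in L428. Of 54613 probe sets in that fit, 5862 were higher and 6851 lower in L1236, and 4619 higher and 5337 lower in L428.

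**Figure D4:**
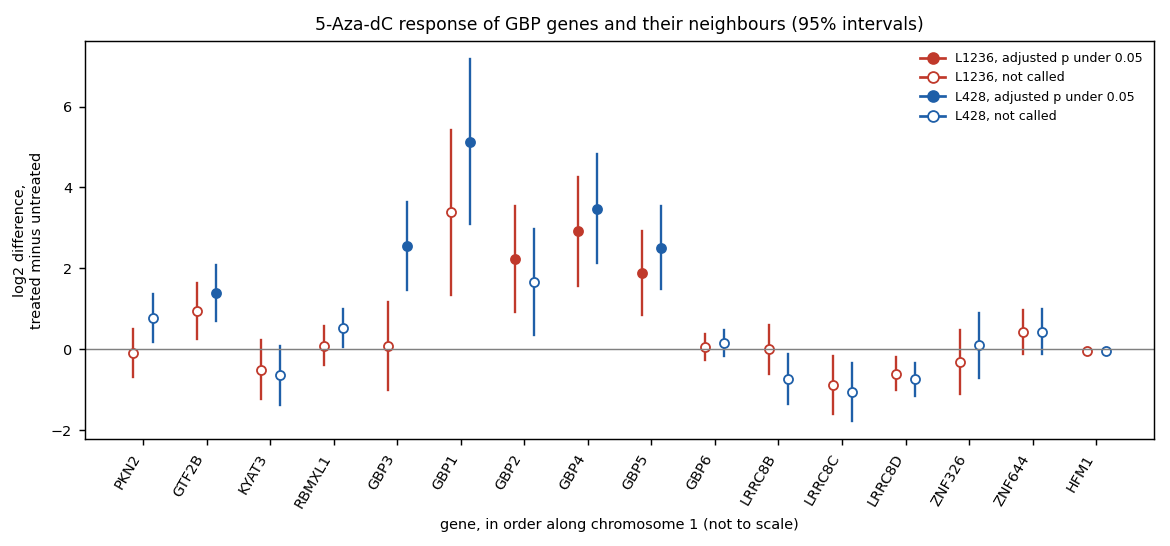
Log2 difference of treated minus untreated cells in L1236 and in L428 for GBP genes and their chromosome 1 neighbours in genomic order, 1 probe set per gene; points are limma estimates, filled where called, and bars their 95% intervals. The points of GBP1, GBP2, GBP4 and GBP5 lie above those of all measured neighbours in both lines, and that of GBP3 does so in L428; the neighbours' medians are -0.07 in L1236 and 0.03 in L428.

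Leaving out single arrays moved these list counts. Without 1 array, 2 to 8 of the 18 interferon and receptor genes rose in L1236 and 3 to 8 in L428, and 3 to 11 of the 24 interferon gamma targets rose in L1236 and 5 to 16 in L428. Without the arrays numbered 1, 11 of the 18 rose and 3 fell in L1236, and 10 rose and 1 fell in L428. Of the 24 interferon gamma targets, 12 rose in L1236 and 16 in L428 in that fit, and 0 fell. Of all probe sets, 10.7% were called higher in L1236 in that fit and 8.46% in L428. Called lower in it were 6851 of 54613 probe sets in L1236 and 5337 in L428. Without 1 array, 1367 to 4115 of all probe sets were called higher in L1236 and 510 to 3107 in L428. These are counts over all probe sets, while the lists hold 1 probe set per gene, and the share by gene in these fits is not given.

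Markers of other cell types moved in L1236 as well. Summed over 9 T-cell and NK-cell markers, the level was 34.1 to 35.3 in treated L1236, 24.8 to 25.9 in untreated L1236, 26.8 to 28.4 in treated L428 and 25.6 to 28.0 in untreated L428. In L1236, where 7.41% of all genes were called higher, 3 of the 9 rose (CD8A, CD3D and PRF1). CD3E, CD3G, CD247 and GNLY stayed below 3 in all 4 groups. Of 8 myeloid markers, 1 rose in L1236 (ITGAM), with sums of 23.4 to 28.0 in treated and 22.8 to 23.3 in untreated L1236, and 22.0 to 23.6 in treated and 21.2 to 22.5 in untreated L428. CD14, LYZ, MPO, FCN1, S100A8 and S100A9 were below 3 in all groups. Of 10 stromal, endothelial and epithelial markers, 5 rose in L1236, where sums were 53.3 to 54.8 in treated and 39.2 to 40.1 in untreated cells, against 36.3 to 38.0 in treated and 35.5 to 36.4 in untreated L428. CDH5, COL1A2, DCN and VWF were below 3 in all groups. In L428, limma called 0 markers of these 3 lists, with 1, 0 and 2 at an unadjusted p under 0.05 in the order given. Over all genes, 2.84% were called higher in L428 and 1.02% lower. Their part in the GBP results was not tested.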

How the data were processed

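RNA of 12 cell-line samples, 3 in each of 4 groups, was measured on 1-colour Affymetrix arrays. The authors deposited a log2 value for every probe set, computed with RMA, per the submitters' processing notes. The version of RMA is not given in the sources used here, and the probe set names are those of a 3′ expression array while a whole-transcript array is named in the series' design. Of 54675 probe sets, 62 controls were left out. Of the 54613 tested, 41091 carry 1 gene symbol, 1801 several and 11721 none, and 41037 of those with 1 symbol matched RefSeq (GRCh38.p14) by Entrez identifier. No array's values were identical to another's.

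Group means of all 12 arrays were fitted without a block in limma 3.58.1 (R 4.3.3, lmFit, contrasts.fit, eBayes), two-sided, with Benjamini-Hochberg adjustment over all tested probe sets and calls at an adjusted p under 0.05. The fit was run on simulated arrays with independent normal spread. It recovered 27 of 50 changes of 1 log2 unit and 48 of 50 changes of 2 log2 units. The simulation held no deviation shared by replicate number and no outlying array, so it does not cover those traits of these data. Arrays give no read depth, so their number limits the precision. In lists, the probe set with the highest mean stood for a gene. Up to 4 called genes with the largest differences per list and line were named, plus IRF1, IRF9, IFNG, IFNB1, IFNGR1, IFNGR2, JAK1, JAK2, GBP6, CASP1 and CASP4 whatever their values. The members and lists were chosen with earlier results of these data known. A few listed genes are not reported here.

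Same-numbered treated and untreated arrays deviated together in L428 (correlations 0.260, 0.154 and 0.167). In L1236 the correlations were 0.069, 0.012 and 0.103, and the numbers were not taken as pairs. Across the lines, same-numbered treated arrays correlated at 0.402, 0.278 and 0.223, and untreated arrays at 0.292, 0.185 and 0.081. Arrays of different lines are not pairs of cultures, so these values cannot tell whether the numbers pair treated and untreated L428 cultures. The replicate block gave each number the same offset in both lines, so it is not a paired test within 1 line. Alternatives were median centring, cyclic loess, a filter on dim probe sets, the replicate block, the arrays compared only, array weights, 1 probe set per gene, an intensity trend, each array left out, and the arrays numbered 1 left out.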

Additional observations from a re-analysis of the deposited data

Results flagged for a closer look

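No GBP probe set was picked out for a closer look. Groups of 3 arrays are too small for a test of single outlying arrays. Among the other named genes, 12 had a treatment response that differed between the lines in limma at an adjusted p under 0.05. Of all probe sets, 2.57% were called in that comparison. Most named genes were chosen for a large called change in a line, so the 12 are described and not set against that share. Values are the L1236 response minus the L428 response on the log2 scale, with the SE. The response was larger in L1236 for CCL17 (2.29 ± 0.28, adjusted p = 0.00459), CD83 (3.55 ± 0.75, 0.0468), CD8A (3.37 ± 0.23, 1.51e-04), EPCAM (5.39 ± 0.13, 1.55e-07), ITGAM (1.49 ± 0.23, 0.0136), KRT18 (3.99 ± 0.38, 0.00103), KRT19 (2.03 ± 0.16, 3.38e-04) and NLRC4 (2.98 ± 0.45, 0.0116). It was lower in L1236 than in L428 for CXCL10 (-3.40 ± 0.60, limma adjusted p = 0.0234), JAK2 (-1.49 ± 0.26, 0.0226), PYCARD (-3.84 ± 0.72, 0.0291) and USP18 (-2.85 ± 0.42, 0.0112). The calls of CD83, PYCARD, JAK2 and CXCL10 were kept in 7, 10, 11 and 13 of 20 alternatives. The other calls were kept in every alternative run for them. No reason for these differences was tested.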

How the results depend on the processing

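No called GBP value and no called value of another named gene changed sign under any alternative run. Over GBP probe sets, comparisons and alternatives, 754 values kept their side of the threshold, 87 lost it and 44 gained it. All 87 losses were of values called in the main fit, and most of the 754 were of values not called in it. By call, the share kept ran from 9 of 21 alternatives (GBP2 202748_at in L1236) to 17 of 21 (GBP4 235574_at in L1236). The number of GBP probe sets called in L1236 (5) was 8 with arrays centred on their median, 8 without the dimmest probe sets, 3 with only the L1236 arrays, 9 with array weights and 9 without the arrays numbered 1. In L428 (7) it was 0 with only the L428 arrays, and 4 of 5 genes were called with 1 probe set per gene. Between the responses (0) it was 1, GBP3, without the dimmest probe sets and 1, GBP3, with array weights, and 7 without the arrays numbered 1. Between untreated lines (0) it was 4 without the arrays numbered 1. Leaving out each array in turn gave 0 to 8 in L1236, 0 to 10 in L428 and 0 to 1 between the responses.

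With the replicate block, 5 GBP probe sets were called in each line. In L1236 the block gained GBP1 231577_s_at and CXCL10 and lost IFI16, IFNGR2, WARS1 and GBP5 229625_at, the only GBP5 call in that line (limma adjusted p = 0.0661, with 8.21e-06 to 0.125 over the alternatives). It also lost PYCARD between the responses and gained MX1 between untreated lines. Beyond these and the L428 values printed in the results, it changed no call of a GBP probe set or named gene.

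Over all probe sets, 4927 were called in L1236, 1647 in L428, 1403 between the responses and 11508 between untreated lines. With median centring L1236 had 13111, of which 24.6% were higher (3223 higher, 9888 lower), against 50.8% in the values as deposited. With array weights, whose iteration did not converge, L1236 had 29528 and the difference between the responses 2876. With only the arrays compared, the counts were 3084 in L1236 and 244 in L428. Without the dimmest probe sets L428 had 2539. By gene, with fewer features tested, there were 2955 in L1236, 920 in L428, 914 between the responses and 5699 between untreated lines. Without the arrays numbered 1 there were 12713 in L1236, 9956 in L428 and 7816 between the responses. Leaving out each array in turn gave 2502 to 8725 in L1236, 717 to 6091 in L428 and 733 to 3588 between the responses. The cause of these shifts was not tested. Probe sets at the array floor, such as GBP1 231578_at and that of GBP6, which is not a member, have no measured change below it.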
